A study of Mus musculus with 20 samples.

Results

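Zfp352, Tcstv1, Tcstv3, Tdpoz1 and AF067061 are mouse genes grouped here as genes of the 2-cell stage, and their RNA was measured in pools of blastocysts. The 5 genes were read from every probe set whose only annotated gene symbol was one of these names. This gave 6 probe sets, 2 for Zfp352 and 1 for each of the others, of 45101 probe sets on the array. The genes had been picked because they were high on 1 array, replicate 3 of the embryos exposed to both calcium- and magnesium-free medium and acid. Their values on that array are therefore a description and carry no test.

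The mouse embryo switches on most of its own genes at the 2-cell stage, when maternal RNA made in the oocyte is being broken down. A set of genes and retroviral repeats is transcribed strongly in that short window, under factors that include the homeobox protein Dux, and is largely silent again by the morula. The same set comes on in a small minority of cultured mouse embryonic stem cells. Zfp352 encodes a zinc-finger protein, Tcstv1 and Tcstv3 are named for a group of transcripts that varies at the 2-cell stage, and Tdpoz1 encodes a protein with TRAF-like and POZ domains. AF067061 carries the name of a cDNA clone.

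The promoters of 3 of the 5 genes are in the RefSeq promoter table (build GRCm38.p6), and Tcstv1 and Tcstv3 have no entry there. The 250 bases before each start are shown because the 3 genes were high on the same array. Capitals mark TATAA on the gene's strand and CACCTTTAA, a 9-base run chosen from the stretches that these promoters share. The regions, each written 5′ to 3′ on the gene's strand, are chr4:90218570-90218819 (plus strand) for Zfp352, chr13:120262845-120263094 (plus strand) for AF067061 and chr3:93676284-93676533 (minus strand) for Tdpoz1.
Zfp352: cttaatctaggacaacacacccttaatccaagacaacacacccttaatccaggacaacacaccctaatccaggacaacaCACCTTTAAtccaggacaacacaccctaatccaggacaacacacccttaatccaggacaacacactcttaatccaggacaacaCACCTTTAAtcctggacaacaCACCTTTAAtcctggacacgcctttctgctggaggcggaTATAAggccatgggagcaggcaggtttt
AF067061: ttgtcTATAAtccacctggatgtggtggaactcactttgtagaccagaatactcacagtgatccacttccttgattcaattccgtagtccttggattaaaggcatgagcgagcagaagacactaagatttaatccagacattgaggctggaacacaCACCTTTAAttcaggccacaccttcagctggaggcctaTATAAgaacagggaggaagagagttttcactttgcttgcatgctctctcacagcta
Tdpoz1: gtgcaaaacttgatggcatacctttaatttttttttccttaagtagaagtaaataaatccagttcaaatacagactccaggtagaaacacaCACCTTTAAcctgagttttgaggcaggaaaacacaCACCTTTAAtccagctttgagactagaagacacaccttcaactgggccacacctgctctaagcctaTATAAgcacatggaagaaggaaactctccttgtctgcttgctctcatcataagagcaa

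CACCTTTAA stood 3 times in the Zfp352 promoter, once in that of AF067061 and 2 times in that of Tdpoz1, always on the gene's strand. In Zfp352 all 3 copies lie in a tandem repeat of near-identical units, so they are not independent sites. CACCTTTAA was found on either strand in 0.362% of the 32851 promoters of the table. It was chosen from these same 3 promoters, so its presence in them was fixed in advance. Nothing is read from that share. The longest run shared by Zfp352 and Tdpoz1 was the 17 bases ACACACCTTTAATCCAG, and AF067061 shared the 16 bases AACACACACCTTTAAT with Tdpoz1. A TATAA on the gene's strand began at position -28 from the annotated start in Zfp352, at -56 in AF067061 and at -58 in Tdpoz1, and AF067061 held a second one at -245. TATAA was present on the gene's strand in 16.0% of all promoters of this length and on either strand in 22.8%. The longer TATATAAG, which contains TATAA, was present in AF067061 and Tdpoz1 and, on either strand, in 0.934% of all promoters. TGATTNAAT, searched on both strands, was found in AF067061 alone among the 3 and in 0.657% of all promoters. These are matches of letters only.

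The study asked how the steps of embryo biopsy change gene expression by the blastocyst stage. All pools were CF1 embryos. Those of the treated groups were handled at the 8-cell stage, and embryos were then cultured singly until 96 h after hCG, with 20 embryos to a pool and 400 embryos in all. The 5 groups of 4 pools were embryos from which a blastomere was removed after both exposures (biopsy), embryos exposed to both calcium- and magnesium-free medium and acid Tyrode's solution (CMF_acid), embryos exposed to acid Tyrode's solution, which dissolves the zona pellucida (acid), embryos exposed to the medium, which loosens contacts between cells (CMF), and untreated embryos. RNA went through repeated rounds of linear amplification before it was hybridised to 1-colour Affymetrix MOE430v2 arrays, 1 array per pool, and replicates are numbered 2 to 5 in each group. The labels do not say which pools shared a collection day, so p-values measure the spread between pools, which may in part be technical. In a pool, more cells with a transcript and more RNA per cell cannot be told apart.

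Levels are log2 of the deposited GC-RMA intensity, whose bottom is near 2 but differs between probe sets. The 5th percentile over probe sets was 1.81 on CMF_acid replicate 3 and 1.77 to 1.86 on the other arrays. Signal is the linear intensity that a second algorithm gave for each array, with a call of Present, Marginal or Absent. The share of probe sets called Present was 50.9% on CMF_acid replicate 3, against 44.3% to 50.9% on the other 19 arrays, lowest on CMF_acid replicate 5. The median level was 3.38 on CMF_acid replicate 3, against 3.31 to 3.55 on the others. The difference of CMF_acid replicate 3 from the mean of the other 19 arrays had a median of 0.0068 over 45037 probe sets, and 95% of the probe sets lay between -0.41 and 0.55. The number of arrays limits the precision.

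All 6 probe sets stood far above this range on CMF_acid replicate 3 and near the bottom of the scale on most other arrays. Zfp352, read by 1425879_at on chromosome 4, had levels of 2.81, 8.46, 2.85 and 2.84 on CMF_acid replicates 2 to 5, and the 19 arrays other than replicate 3 ranged from 2.74 to 2.88 with a median of 2.81. CMF_acid replicate 3 was 5.58 above the highest of them, acid replicate 4, on the log2 scale. Its second probe set, 1425880_x_at, had 8.36 on CMF_acid replicate 3, against a lowest value of 2.65, a median of 2.71 and a highest value of 4.00 on the other arrays. Both probe sets of Zfp352 thus gave 1 high array with no overlap, and the second also had 3 arrays above its floor: biopsy replicate 2 at 4.00, acid replicate 4 at 3.44 and untreated replicate 2 at 3.56.

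Tcstv1 (1420729_at, chromosome 13) had levels of 2.61, 8.06, 2.66 and 2.73 on CMF_acid replicates 2 to 5, and the other groups spanned 2.56 to 2.66. The gap to the highest other array, CMF_acid replicate 5, was 5.34 on the log2 scale. Tcstv3 (1451852_at, chromosome 13) had 2.23, 6.90, 2.27 and 2.30 on the same 4 arrays, and 2.20 to 2.45 on the arrays of the other groups. Its gap to the highest of the others, biopsy replicate 2, was 4.45. In both genes replicate 3 alone stood off the floor, and no other array came near it.

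Tdpoz1 (1425375_at, chromosome 3) had 2.81, 5.62, 2.86 and 2.94 on CMF_acid replicates 2 to 5, against 2.73 to 2.89 in the other groups. It had the smallest gap of the 6 probe sets, 2.68 above the highest other array on the log2 scale. AF067061 (1425220_x_at, chromosome 13) had 3.17, 11.59, 3.21 and 3.21 on CMF_acid replicates 2 to 5. Replicate 3 was 3.48 above the next array on the log2 scale. No fold is given for the members by GC-RMA, since most of their other arrays sit at its floor. The suffix x marks a probe set with probes that may also bind other sequences, so reads of AF067061 and of the second Zfp352 probe set may include related genes.

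**Figure D1:**
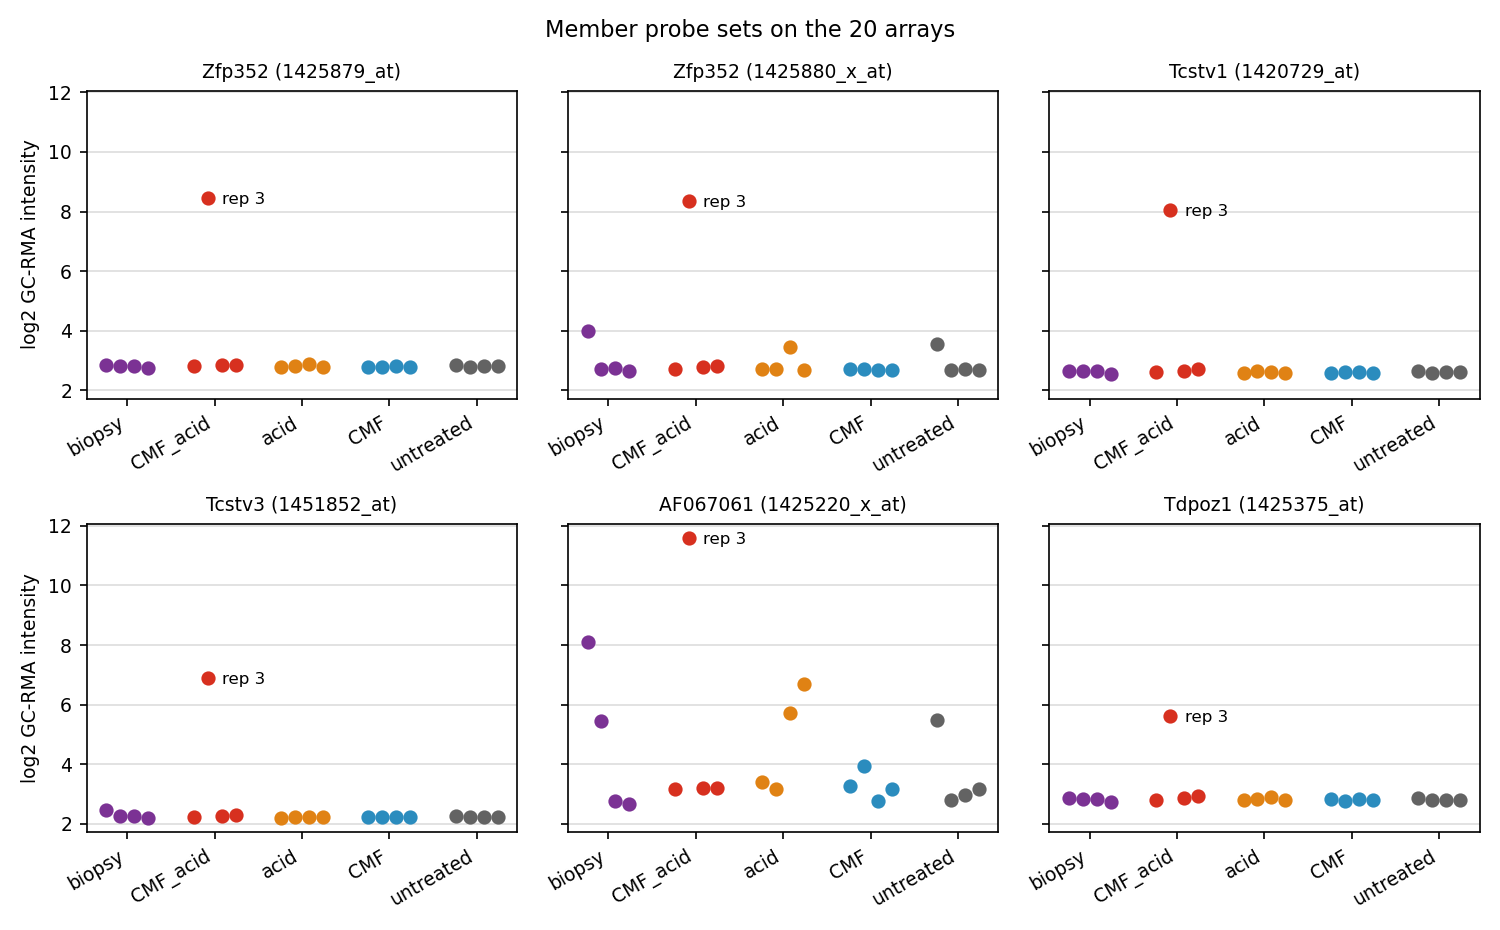
Each point is 1 array: log2 GC-RMA intensity (y axis) of the 6 member probe sets by group (x axis), with the replicates 2 to 5 of a group from left to right and replicate 3 of CMF_acid labelled. That array lies between 5.62 and 11.59, and of the 6 probe sets only AF067061 has other arrays above 5.

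AF067061 was the member with most spread elsewhere. Its levels were 8.11, 5.46, 2.76 and 2.66 on biopsy replicates 2 to 5 and 3.39, 3.16, 5.71 and 6.70 on acid replicates 2 to 5. They were 3.28, 3.95, 2.75 and 3.16 on CMF replicates 2 to 5 and 5.50, 2.82, 2.96 and 3.17 on untreated replicates 2 to 5. Each group held low arrays, and high ones occurred in the biopsy, acid and untreated groups as well as in CMF_acid. Of the high ones, biopsy replicate 3 at 5.46 and untreated replicate 2 at 5.50 were called Absent. The group means were 4.75 ± 2.59 in biopsy, 4.74 ± 1.74 in acid, 3.29 ± 0.50 in CMF and 3.61 ± 1.27 in untreated pools (SD, n = 4 each), and 3.19 ± 0.02 in CMF_acid pools without replicate 3 (SD, n = 3). From high to low the order was biopsy, acid, untreated, CMF and CMF_acid, and no neighbours in it differed by more than their spread. The order rests on single arrays and on the scale: by log2 Signal the difference from untreated pools was 0.72 in biopsy, 2.00 in acid, 0.21 in CMF and 1.204 in CMF_acid pools without replicate 3. With replicate 3, the CMF_acid mean was 5.29 ± 4.20 (SD, n = 4).

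The Signal values, which are not pulled to such a floor, came with Present calls on further arrays, at low values. The median Signal over probe sets was 17.1 on CMF_acid replicate 3 and 14.9 to 24.4 on the other arrays. Zfp352 (1425879_at) had a Signal of 10.0, 170.6, 22.1 and 22.8 on CMF_acid replicates 2 to 5, and 23.3, 12.3, 3.6 and 8.6 on biopsy replicates 2 to 5. It had 18.7, 13.8, 20.7 and 25.7 on the acid arrays, 17, 16.9, 14.8 and 21.7 on the CMF arrays and 33.3, 13.7, 15.4 and 22.2 on the untreated arrays, in replicate order. This probe set was called Present on CMF_acid replicate 3 with a detection p of 0.000244 and on 16 of the other 19 arrays, with 2 more Marginal. By Signal, CMF_acid replicate 3 was 5.12 times the highest other array, untreated replicate 2. The second probe set, 1425880_x_at, had 141.3 there, against a median of 7.1 and a highest value of 22.2 on the others. It was Present on 10 of the 19. Zfp352 was thus detected on arrays of every group, at a Signal below that of replicate 3 on each.

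Tcstv1 had a Signal of 75.2 on CMF_acid replicate 3, against a median of 5.7 and a highest value of 10.7 on the others, and was Present on 11 of the 19. Tcstv3 had 63.1, against a median of 5.4 and a highest value of 13.5, and was Present on biopsy replicate 2, CMF replicate 3 and untreated replicate 5. Tdpoz1 had 32.1, against a median of 5.3 and a highest value of 9.9, and was Present on 5 of the 19, on 2 biopsy, 2 acid and 1 CMF arrays and on none of the other CMF_acid or the untreated arrays. AF067061 had 558.3, against a median of 7.9 and a highest value of 85.1, and was Present on biopsy replicate 2, acid replicate 4 and acid replicate 5. Its Signal on these 3 arrays was 85.1, 43.6 and 47.1. The 6 probe sets were called Present on 17, 11, 12, 4, 4 and 6 of the 20 arrays, for Zfp352 with both probe sets, Tcstv1, Tcstv3, AF067061 and Tdpoz1 in that order, so all 6 passed the authors' filter of Present on at least 3 arrays.

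**Figure D2:**
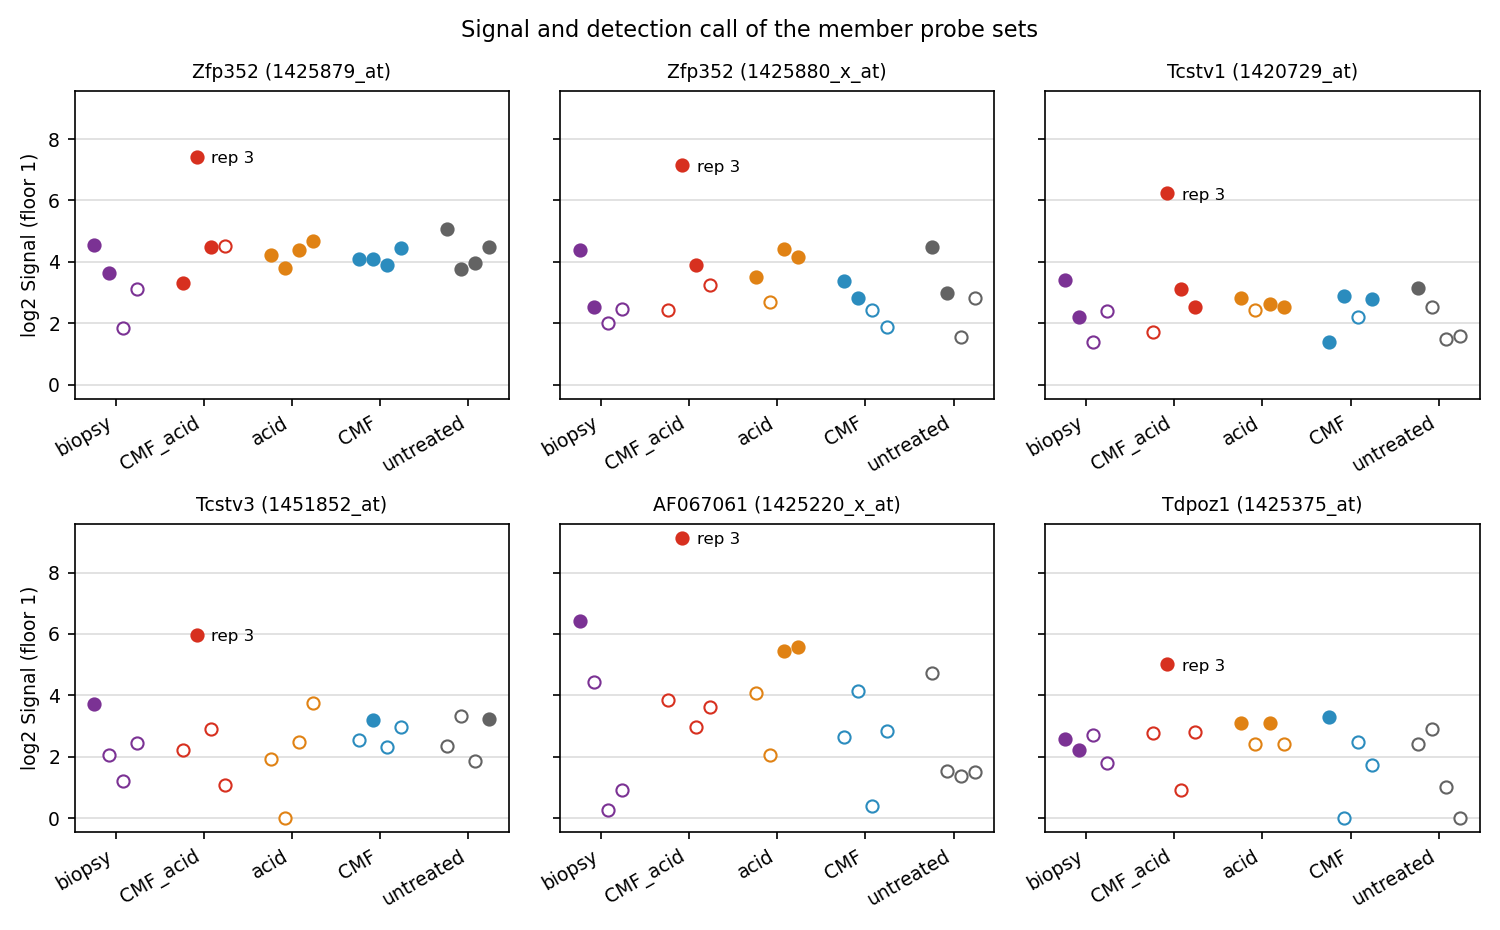
Log2 of the Signal, with values under 1 set to 1 (y axis), of the 6 member probe sets on each array, by group (x axis) with replicates 2 to 5 from left to right; filled points were called Present and open points Marginal or Absent. Replicate 3 of CMF_acid is labelled and is the highest array in each panel, and Zfp352 by 1425879_at is filled on 16 of the other 19 arrays.

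The handling steps were compared with no handling on the 19 arrays other than CMF_acid replicate 3, whose high values had picked the genes relative to these 19, by limma's moderated test on 1 mean per group, with p adjusted by Benjamini-Hochberg over 45037 probe sets. None of the 6 probe sets passed an adjusted p of 0.05 in any of the 4 comparisons with untreated pools, where limma called 0 probe sets in all (0% of those tested). At an unadjusted p under 0.05 the counts over all probe sets were 689 for biopsy, 4677 for CMF_acid without replicate 3, 453 for acid and 368 for CMF, and none was a member, whose lowest unadjusted p was 0.127. The count of 0 for CMF_acid without replicate 3 rests on single arrays: it was 6072 without CMF_acid replicate 2 and 41 without replicate 4, and none of these was a member. AF067061 differed from untreated pools by 1.14 ± 1.07 (SE) in biopsy pools, which was 0.015 without biopsy replicate 2, by -0.42 ± 1.16 in CMF_acid without replicate 3, by 1.13 ± 1.07 in acid pools and by -0.32 ± 1.07 in CMF pools. The standard error exceeded the difference in 2 of these and was close to it in the other 2.

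Zfp352 by 1425880_x_at differed from untreated pools by 0.12 ± 0.27 (SE) in biopsy pools, -0.14 ± 0.29 in CMF_acid without replicate 3, -0.02 ± 0.27 in acid pools and -0.21 ± 0.27 in CMF pools. The 16 differences of the other 4 probe sets lay between -0.03 and 0.05, since nearly all of their values sit at the bottom of the scale. Over the 6 probe sets the median difference was 0.03 in biopsy pools, 0.02 in CMF_acid without replicate 3, -0.01 in acid pools and -0.02 in CMF pools. Over all probe sets tested it was 0.01, 0.03, -0.01 and -0.01 in the same order. The 4 comparisons share the untreated arrays.

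How unusual the pattern was on the array was counted over all probe sets. A probe set was counted as high on an array when it was called Present there and lay at least 1 above the highest of the other 19 arrays on the log2 scale. On CMF_acid replicate 3 this held for 42 probe sets (0.0933% of 45037), and for 25 (0.0555%) at a step of 2. The other 19 arrays had 0 to 46 such probe sets with a median of 4, the most on CMF_acid replicate 5, the array with the fewest Present calls. At the step of 2 the other arrays had 0 or 1, so the count of 25 had no match among them. The 6 member probe sets are among both counts, and since the array chose them, nothing is read from this. Of the 42, 27 also lay at least 1 above the others by log2 Signal.

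**Figure D3:**
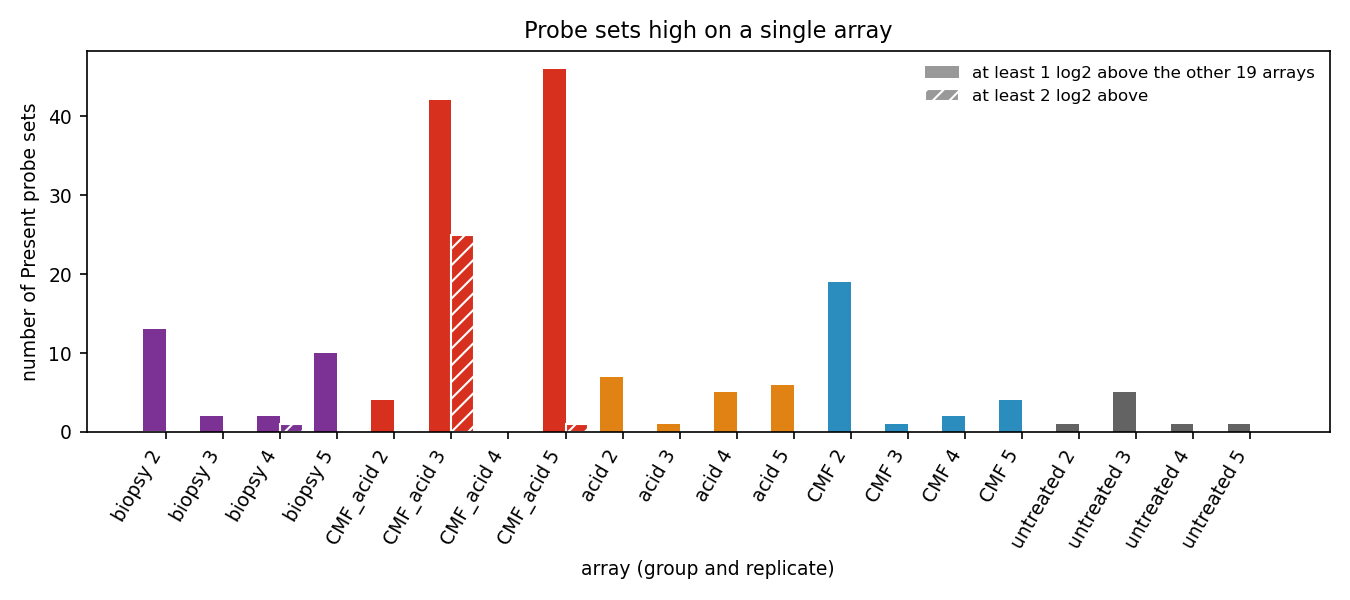
For each of the 20 arrays (x axis), the number of probe sets (y axis) called Present there and at least 1 (plain bars) or at least 2 (hatched bars) above the highest of the other 19 arrays on the log2 scale. CMF_acid replicates 3 and 5 have 42 and 46 at the step of 1, and replicate 3 has 25 at the step of 2, where the other arrays have 0 or 1.

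The genes whose pattern was most like that of the members were taken as those with the largest gap between CMF_acid replicate 3 and the highest of the other 19 arrays. Of the 42 probe sets, 6 were the members, 4 belonged to other genes of a list of 2-cell stage genes, 19 to other genes with a single symbol, 9 carried several symbols and 4 had none. Usp17la, of the USP17-like family of deubiquitinating enzymes, had 11.45 on CMF_acid replicate 3 and 2.04 to 2.68 on the others, and its Signal was 624.7, against a highest value of 28.3. Gm20767 had 9.77, against 3.23 to 4.56, and AF067063 had 10.08, against 5.73 to 7.46. Rfpl4b, a ret finger protein-like gene, had 4.90, against 2.41 to 2.88. These 4 genes had gaps of 8.77, 5.21, 2.62 and 2.02.

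Among genes outside the list, 3110040M04Rik had 8.29 on CMF_acid replicate 3, against 2.19 to 2.31 on the others, a gap of 5.98. BC080696, annotated as miscellaneous RNA, had 9.98, against 3.50 to 4.29. D13Ertd608e had 10.28, against 1.80 to 5.96, and AA414992 had 7.29, against 2.67 to 2.98, both annotated as miscellaneous RNA too. Pramel18, of the PRAME-like family, had 7.52, against 3.36 to 3.96, and Gm11544 had 10.30, against 5.96 to 6.87. Fam90a1a and the pseudogene Gm4850 had smaller gaps of 2.43 and 2.22.

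The remaining 11 genes lay at most 1.64 above the other arrays. Ascl2, a basic helix-loop-helix factor of the trophoblast lineage, had 5.92 on CMF_acid replicate 3, against 3.07 to 4.28. Cnnm2, of magnesium homeostasis, had 6.95, against 4.83 to 5.53. Ppp1r2-ps7, Pdgfrl, C2cd4b, Tacr3, Casp6, 1110008P14Rik, Acbd3 and Atxn7l1 had gaps of 1.39, 1.34, 1.10, 1.07, 1.04, 1.03, 1.03 and 1.01, and Asap1 lay just past the step of 1. For several of these Signal did not single the array out: Casp6, a caspase, had a Signal of 21.0, against a median of 21.8 and a highest value of 31.7 on the others. Acbd3, a Golgi protein, was Present on all 19 other arrays and had 10.40, against 7.59 to 9.38.

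**Figure D4:**
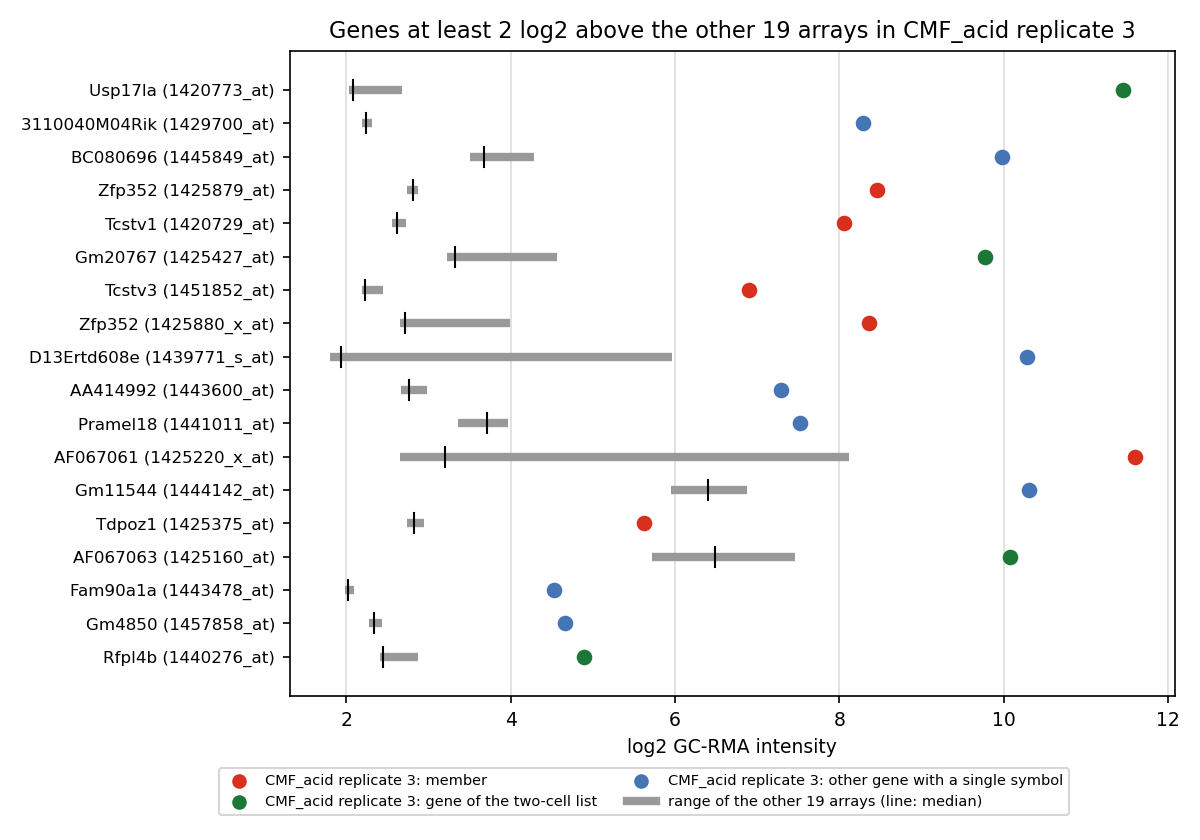
Genes with a single symbol at least 2 above the other 19 arrays in CMF_acid replicate 3: its log2 GC-RMA intensity (points, x axis) beside the range (grey bar) and median (black line) of the other 19 arrays. Usp17la has the widest gap, 8.77, and the grey bars of AF067061 and D13Ertd608e reach 8.11 and 5.96.

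Of the 11 non-member genes of this group with a promoter entry, 0 held CACCTTTAA and 3, Rfpl4b, C2cd4b and Tacr3, held TATAA. TATATAAG was present in 1 of them, Rfpl4b, and TGATTNAAT in 1, Fam90a1a. CACCTTTAA had been picked from the members' own sequences, so these counts are a description.

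Tcstv1, AF067061 and Tcstv3 lie near each other on chromosome 13, and so do 3 of the genes most like them. In the RefSeq gene order (GRCm38.p6) the stretch runs AF067063, D13Ertd608e, Tcstv1, Gm20767, AF067061 and Tcstv3, with 0, 1, 14, 6 and 4 other annotated genes between neighbours. The stretch holds 31 annotated genes, 11 of them protein coding, and 7 have a probe set of a single symbol. The stretch was bounded by genes that were high on CMF_acid replicate 3 and 3 of its genes are members, so nothing is read from how many of its genes were high. Its only other gene with such a probe set, BC147527, had 5.48 there, against 4.22 to 5.12 on the others, which is 0.36 above the highest. AA414992 is on chromosome 13 too, outside this stretch. Genes in such clusters can share probe sequence, so their probe sets may not be separate readings.

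Several of these signals were also present on other arrays, at lower levels. Of the 24 probe sets with a symbol at the step of 2, the number at least 1 above the median of the 19 arrays was 5 on biopsy replicate 2, 5 on acid replicate 5, 3 on untreated replicate 2, 2 each on biopsy replicate 3 and acid replicate 4, 1 each on acid replicate 2, CMF replicate 2 and CMF replicate 3, and 0 on the other 11. Without the 6 member probe sets the counts of 18 were 3 on biopsy replicate 2, 4 on acid replicate 5, 2 on untreated replicate 2 and 0 or 1 elsewhere. Over all 45037 probe sets the share at least 1 above its median was 0.342% on biopsy replicate 2, 0.293% on acid replicate 5 and 0.164% on untreated replicate 2. The probe sets had been chosen on another array of the same table, so these counts are a description. D13Ertd608e had 5.96 on biopsy replicate 2, 3.78 on acid replicate 5 and 3.29 on untreated replicate 2, and its median was 1.94. Gm20767 had 4.56 on acid replicate 5, 4.05 on acid replicate 4 and 4.03 on biopsy replicate 2, and its median was 3.32. None of the 3 other CMF_acid arrays had any of the 24. Over all probe sets the share was 0.149%, 0.0466% and 1.13% on CMF_acid replicates 2, 4 and 5, so nothing is read from these counts of 0.

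The other genes of the 2-cell stage list were read where a probe set carried a single symbol, which held for 17 of 56 listed symbols. The list was chosen with earlier results of these data known, so its counts are a description. Of the 17, 4 were high on CMF_acid replicate 3, as given above, beside 0.0933% of all probe sets. The median difference of that array from the mean of the others was 0.0392 over the 17 genes, beside 0.0068 over all probe sets. It was set largely by genes called Present on all 20 arrays, so it does not measure genes that are silent elsewhere. None of the listed Zscan4 genes was among the 17. Duxf3, the gene of the homeobox protein Dux, had 3.72 there, against 3.65 to 4.21, and was called Absent there and Present on 14 of the others. Zfp353-ps, a pseudogene, had 4.09, against 3.87 to 4.38, and was Absent there and Present on 1 of the others. Another 10 genes of the list were called Present on all 20 arrays.

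Dppa2 and Dppa4, chromatin proteins of pluripotent cells, had 15.78 and 13.37 on CMF_acid replicate 3, against 15.64 to 15.82 and 12.08 to 13.17, by 1453223_s_at and 1429597_at. Nelfa, a subunit of the negative elongation factor, had 11.15, against 10.34 to 10.70, and Sp110, a nuclear body protein, had 10.65 by 1456493_at, against 8.19 to 10.37, while its other 2 probe sets were Absent. Trim43a had 14.09, against 12.73 to 14.11, and Ubtfl1, an HMG-box protein, had 9.72, against 9.56 to 10.45. Pramel6 (1456270_s_at) had 15.87, against 15.86 to 16.00, and Pramel7 (1439810_s_at) had 14.87, against 14.88 to 15.11. Ddit4l, an inhibitor of mTOR signalling, had 9.91 by 1451751_at, against 8.04 to 9.65, but 9.76 by 1444139_at, against 9.44 to 10.21. Arg2, the mitochondrial arginase, had 5.92 by 1438841_s_at, against 5.52 to 6.45. Only Dppa4, Nelfa and, each by some of their probe sets, Sp110 and Ddit4l lay above all other arrays among these, and by less than 1.

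Probe sets with several symbols cannot be given to 1 gene. On the array 8 such probe sets carried at least 1 symbol of the 2-cell list, and 5 of them were high on CMF_acid replicate 3. Of all 932 probe sets with several symbols 9 were high there, these 5 included, and of all 45037 probe sets 0.0933%. The list was chosen with earlier results of these data known, so nothing is read from the count. The highest of the 5, 1443961_at, had 14.23 there with a Signal of 2401, against a level of 4.46 to 10.62 on the others, and 10.62 was untreated replicate 2. Another, 1457033_at, had 11.37, against 2.57 to 2.76. The 3 that were not high were called Absent there and were Present on 0 of the other 19 arrays.

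The other lists were read to see what else moved with the members on CMF_acid replicate 3. Markers of the inner cell mass were called Present there for 10 of 10 genes, trophectoderm markers for 8 of 10 and primitive endoderm markers for 10 of 10, the 3 lineages of a blastocyst. No gene of the 5 other lists was high on the array. For each list the linear GC-RMA intensities were summed over 1 probe set per gene, that with the highest mean.

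The oocyte and maternal list, matched for 22 of 26 genes, summed to 31327 on CMF_acid replicate 3, the highest of the 20 arrays. Khdc3, of the subcortical maternal complex, made up 89.3% of this sum, with 14.77 there, against 14.10 to 14.74. Without Khdc3 the sum was 3346, against 2139 to 3441 on the others, with 1 of them at or above it. With Khdc3 the sums were 24152 to 30455 in biopsy pools, 19666 to 27770 in the other CMF_acid pools, 26418 to 29393 in acid pools, 27059 to 29859 in CMF pools and 27511 to 28625 in untreated pools. The median difference over its genes was 0.0057, beside 0.0068 over all probe sets. Ooep, of the same complex, had 10.63 on CMF_acid replicate 3, against 9.32 to 10.69. Zp3, a zona pellucida protein, had 6.33, against 5.00 to 6.58, and Nlrp14, an oocyte NLR protein, had 6.69, against 5.87 to 7.13. All 3 lay inside the range of the other arrays. Of the 22 matched genes, 12 were called Present on CMF_acid replicate 3 and 16 on at least 1 array. Gdf9, an oocyte growth factor, was Present on all 20 arrays and had 4.52 on CMF_acid replicate 3, against 4.52 to 4.66. Mos and Nobox, an oocyte kinase and an oocyte homeobox factor, were Absent on CMF_acid replicate 3 and Present on 0 of the others. Oosp1, Btg4, Figla and, by 1420005_s_at, Bmp15 were Present there and on 19, 18, 4 and 8 of the others. Their levels there were 2.42, 2.49, 1.84 and 3.26, inside the range of the other arrays. The part of maternal RNA in the members' levels was not tested.

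The cumulus and granulosa list, matched for 13 of 15 genes, summed to 963 on CMF_acid replicate 3, against 526 to 1328 on the others, with 3 of them at or above it. Amhr2 by 1457021_x_at made up 90.9% of it, and without Amhr2 the sum was 88.0, against 85.0 to 96.9 on the others. By group its sums were 626 to 1092 in biopsy, 619 to 1328 in the other CMF_acid, 663 to 1026 in acid, 725 to 881 in CMF and 526 to 956 in untreated pools. Amhr2, the receptor for anti-Müllerian hormone, had 9.38, against 8.15 to 9.60, by 1438967_x_at. Star, which moves cholesterol into mitochondria, had 2.90 by 1418728_at, against 2.85 to 3.85, and 4.20 by 1418729_at, against 4.17 to 4.23, and both probe sets were called Present. Pgr, the progesterone receptor, had 2.17 by 1439527_at, against 2.13 to 2.23, and was Absent.

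Inner cell mass and trophectoderm sums on CMF_acid replicate 3 were 117970 and 120822, against 102794 to 124131 and 107014 to 131799 on the others. Dppa5a made up 45.8% of the first and Krt8 31.8% of the second. Without Dppa5a the inner cell mass sum was 63925, against 48624 to 63865, with 0 of the others at or above it. Without Krt8 the trophectoderm sum was 82415, against 71767 to 91660. The primitive endoderm sum was 73847, and 18 of the 19 other arrays were at or above it. Without Lrp2, which made up 39.4% of it, the sum was 44778, against 41887 to 53187, with 16 of the others at or above it. With Lrp2 the range was 73565 to 80653 in biopsy pools, 79314 to 84749 in the other CMF_acid pools, 79178 to 86396 in acid pools, 81731 to 84896 in CMF pools and 78781 to 85463 in untreated pools. The median difference over the 10 primitive endoderm genes was -0.17, beside 0.0068 over all probe sets. Sox17, a transcription factor of primitive endoderm, had 5.14 by 1429177_x_at, against 4.79 to 8.08, and Pdgfra, a growth factor receptor of the same lineage, had 8.75 by 1438946_at, against 8.68 to 10.54. Dab2, an endocytic adaptor, had 9.05 by 1429693_at, against 8.10 to 8.80, and 10.16 by 1430604_a_at, against 9.45 to 10.13, but 14.39 by 1420498_a_at, against 14.43 to 14.69, and 8.53 by 1423805_at, against 5.67 to 9.19. Tdgf1, an epiblast co-receptor for Nodal, had 11.00, against 11.11 to 12.16, and Elf5, a trophoblast factor, had 3.29, against 3.05 to 6.41. Esrrb and Fgf4, an orphan receptor and a growth factor of pluripotent cells, had 9.97 and 8.73, against 9.04 to 9.87 and 5.42 to 9.04. Fgfr2 and Tfap2c of the trophectoderm had 10.04 and 11.24, against 9.97 to 10.63 and 9.48 to 11.43. Their part in the members' levels was not tested.

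**Figure D5:**
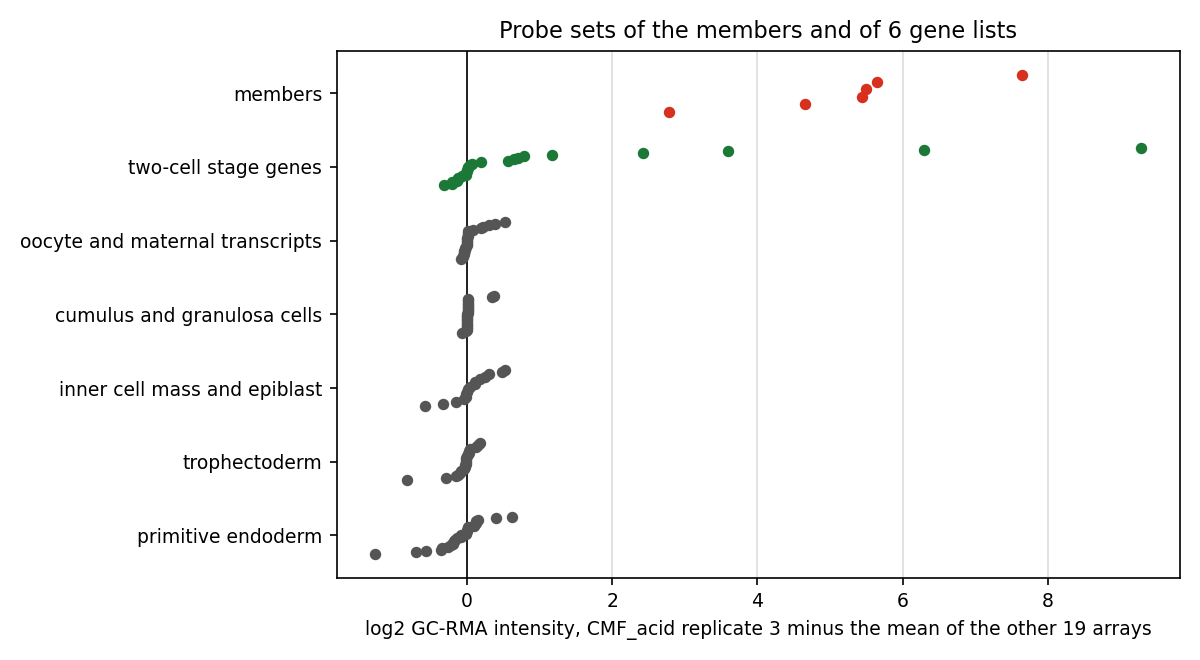
Log2 GC-RMA intensity in CMF_acid replicate 3 minus the mean of the other 19 arrays (x axis) for each probe set of the members, of the 2-cell stage list and of 5 other marker lists (rows). The members lie between 2.79 and 7.64, 4 probe sets of the 2-cell list lie above 2, and every probe set of the other lists lies between -1.26 and 0.62.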

How the data were processed

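Per the series design text, the authors quantified and normalised the intensity values of the series table with GC-RMA in ArrayAssist Lite 3.4. These deposited intensity values are linear, and log2 was taken here. The deposited array tables hold 3 further values for each probe set, per the file headers: a Signal intensity scaled within the array, a call, and the p-value of that call. No source used here names the version of that software. Of 45101 probe sets, 64 controls were left out. The platform annotation gave 34945 probe sets a single symbol, 932 several and 9160 none; only single symbols were named.

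Groups were compared in R 4.3.3 with limma 3.58.1 (lmFit and eBayes, 5 group means, 19 arrays without CMF_acid replicate 3, no detection filter, Benjamini-Hochberg, threshold 0.05), tested on simulated data. Alternatives were log2 Signal with a floor of 1, the Present filter, all 20 arrays, a replicate block, an intensity trend and leaving out each array. All 6 member probe sets passed the authors' filter, which was left out of the main test. The members, the gene lists and the rules were chosen with earlier results of these data known. Named were all members, genes of the 2-cell list called Present on any array or high on a single one, up to 20 other genes with the widest gap between CMF_acid replicate 3 and the other arrays, and up to 3 genes of each other list with the widest difference from their mean. BC147527, Khdc3, Gdf9, Mos, Nobox, Oosp1, Btg4, Figla, Bmp15, Dppa5a, Krt8 and Lrp2 were named after their values were seen. Coordinates are those of the RefSeq promoter table only, since the files name no genome build.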

Additional observations from a re-analysis of the deposited data

Results flagged for a closer look

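In groups of 4 arrays, an array was set apart when its gap to the nearest other array, as a share of the group's range, was above Dixon's 95% critical value for 4 samples. Of 30 groups (6 probe sets in 5 groups), 12 held such an array. Chance gives about 1 in 20, but not for an array that chose the members nor for values close to the floor, so the count is not set against it. The 6 in CMF_acid restate the choice of the members: replicate 3 was the high array at 0.993 for Zfp352 (1425879_at), 0.978 for Zfp352 (1425880_x_at), 0.979 for Tcstv1, 0.985 for Tcstv3, 0.995 for AF067061 and 0.951 for Tdpoz1.

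Outside CMF_acid, Zfp352 by 1425880_x_at had 1 high array in 3 groups: biopsy replicate 2 (gap 0.934 of the range, level 4.00), acid replicate 4 (0.959, level 3.44) and untreated replicate 2 (0.962, level 3.56). Biopsy replicate 5 was the low array for Tdpoz1 (0.836, level 2.73, nearest other array 2.85). Untreated replicate 2 was also high for AF067061 (0.869, level 5.50), where it was called Absent. For Tdpoz1 the gap of untreated replicate 2 was 0.837 of the range, at a level of 2.88 with the nearest other array at 2.81, but by Signal it had 5.3 and untreated replicate 3 had 7.4. Both Tdpoz1 gaps lie at the GC-RMA floor.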

How the results depend on the processing

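No member passed the threshold under any alternative, the lowest adjusted p being 0.0752 without CMF_acid replicate 2. By log2 Signal the members' excess over the mean of the other 19 arrays was 3.40 and 4.09 for Zfp352, 3.86 for Tcstv1, 3.58 for Tcstv3, 6.03 for AF067061 and 2.86 for Tdpoz1. The count of 42 high probe sets was 25 at a step of 2, 44 without a Present call, 32 by Signal and, an alternative chosen after seeing the data, 44 without CMF_acid replicate 5. On CMF_acid replicate 5 itself the count of 46 was 1 at a step of 2, 76 without a Present call and 70 by Signal. The 4 counts of 0 calls against untreated pools were 1 (Slc26a8) for acid and 1 (4930500A05Rik) for CMF_acid without replicate 3 by log2 Signal. Leaving out 1 array gave 0 to 1 for biopsy, 0 to 1 for CMF, 0 to 1 for acid and 0 to 6072 for CMF_acid without replicate 3, with 6072 without CMF_acid replicate 2, 41 without replicate 4 and 2 without replicate 5. Zfp78 was the 1 call in all 4 without untreated replicate 5, and Il17rd the 1 for acid without acid replicate 5. The cause was not tested.

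Directions were followed for the 2 probe sets off the floor and turned where the difference was smaller than its standard error in the main test. Zfp352 by 1425880_x_at was -0.12 in biopsy, 0.73 in acid and 0.23 in CMF_acid without replicate 3 by log2 Signal, and 1.26 for CMF_acid on all 20 arrays, which adds replicate 3. Leaving out 1 array gave it -0.21 to 0.33 in biopsy, -0.29 to 0.0034 in CMF, -0.20 to 0.20 in acid and -0.22 to 0.075 in CMF_acid. AF067061 was 0.21 in CMF and 1.204 in CMF_acid without replicate 3 by log2 Signal and 1.68 for CMF_acid on all 20 arrays, with 0.015 to 1.83 in biopsy, 0.48 to 1.76 in acid, -0.59 to 0.30 in CMF and -0.68 to 0.21 in CMF_acid on leaving out 1 array, and 0.72 in biopsy and 2.00 in acid by log2 Signal. The deviations of same-numbered arrays from their group means had median correlations of 0.20, 0.24, 0.17 and 0.19 for replicates 2 to 5. Of the 10 pairs of each number, 6 to 10 were over 0.1, and all 10 were in replicate 3. Same-numbered arrays thus tended to deviate together. Arrays of unlike numbers were not compared, and whether equal numbers mark a shared batch was not tested. The main test did not take the numbers as pairs. With the replicate block the counts of calls were 0 in all 4 comparisons. GC-RMA gives low probe sets a nearly flat floor, which differs between probe sets, so differences under that floor cannot be seen.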
